A study of Mus musculus with 8 samples.

Results

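The 14-3-3 proteins are a family encoded in the mouse by 7 genes, Ywhab (beta), Ywhae (epsilon), Ywhag (gamma), Ywhah (eta), Ywhaq (theta), Ywhaz (zeta) and Sfn (sigma, also called stratifin). Their RNA levels were compared in late 2-cell embryos that had been injected with a morpholino against Med13 or with a scrambled morpholino. The genes were taken as the rows of the deposited table that carry these symbols, with transcript rows summed per symbol, which gave 7 of 34976 symbols. All 7 were among the 11755 symbols with a mean of at least 1 FPKM (fragments per length of transcript and library total), a scale that corrects for transcript length. Transcript rows of a gene share exons, so a summed level may also depend on how many rows the gene has, and levels of different genes are therefore given on the most abundant transcript too. Sfn passed that limit mainly through the scrambled morpholino libraries. The family was chosen by its FPKM values in these same 8 libraries, in the contrast described here, so its levels are given as a description, without a test.

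Each library came from a pool of 40 embryos of the outbred mouse stock CF-1, injected as early 1-cell embryos and grown to the late 2-cell stage. The 4 Med13 morpholino libraries had received an antisense oligonucleotide, described in the labels as targeting the Med13 transcription start site. Med13 belongs to the CDK8 module of Mediator, the bridge between transcription factors and RNA polymerase II. The 4 scrambled morpholino libraries had received a control oligonucleotide. Injection itself is shared by both groups, and uninjected embryos were not analysed here. The libraries are separate pools, so their spread covers differences between pools and library preparation. Whether pools shared a collection or an injection session is not stated in the labels used here. Because embryos were pooled, less RNA per embryo and fewer embryos with the RNA cannot be told apart.

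14-3-3 proteins work as homodimers and heterodimers that dock onto phosphorylated serine or threonine in other proteins. Docking can hold a partner in the cytoplasm, mask an active site or protect the partner from dephosphorylation. In oocytes and early embryos the best known partner is the phosphatase CDC25B, which 14-3-3 binding restrains after phosphorylation by protein kinase A, so that CDK1 stays inactive. Other partners include the death promoter BAD and the transcriptional coactivator YAP. Sigma forms mainly homodimers and is known from epithelial cells, where p53 induces it after DNA damage.

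The 7 genes lie apart in the genome (GRCm38). Ywhag (ENSMUSG00000051391, chr5:135908409-135934616, minus strand) and Ywhah (ENSMUSG00000018965, chr5:33018816-33027966, plus strand) share a chromosome but not a neighbourhood. Ywhaz is on chromosome 15 (ENSMUSG00000022285, chr15:36770770-36796929, minus strand), Ywhaq on chromosome 12 (ENSMUSG00000076432, chr12:21390071-21417637, minus strand) and Ywhae on chromosome 11 (ENSMUSG00000020849, chr11:75732869-75765845, plus strand). Ywhab is on chromosome 2 (ENSMUSG00000018326, chr2:163994960-164018588, plus strand) and Sfn on chromosome 4 (ENSMUSG00000047281, chr4:133600556-133602168, minus strand). Their coding sequences run from 735 to 765 bases. Of the 21 pairs, Ywhag and Ywhah were the most alike, with 79.0% of aligned coding bases identical. Ywhab and Ywhaz followed with 75.0%. Ywhae was the most distant member, with 64.2% to 67.3% identity to the others.

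The stretch of 250 bases before the RefSeq start (GRCm38.p6) is shown for Ywhag and Ywhah, the closest pair by coding sequence, and for Sfn, the matched member with the fewest CpG dinucleotides. Capitals mark matches, on either strand, to the GC box GGGCGG, the CCAAT box CCAAT, the TATA box TATAAA, and the cyclic AMP response element TGACGTCA or its core TGACG. The regions are chr5:135934642-135934891 (minus strand) for Ywhag, chr5:33018566-33018815 (plus strand) for Ywhah and chr4:133602169-133602418 (minus strand) for Sfn.
Ywhag: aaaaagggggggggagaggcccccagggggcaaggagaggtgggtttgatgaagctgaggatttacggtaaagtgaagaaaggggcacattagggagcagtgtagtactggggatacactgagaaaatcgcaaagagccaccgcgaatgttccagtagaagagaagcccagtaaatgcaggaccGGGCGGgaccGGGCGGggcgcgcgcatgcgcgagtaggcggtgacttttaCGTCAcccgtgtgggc
Ywhah: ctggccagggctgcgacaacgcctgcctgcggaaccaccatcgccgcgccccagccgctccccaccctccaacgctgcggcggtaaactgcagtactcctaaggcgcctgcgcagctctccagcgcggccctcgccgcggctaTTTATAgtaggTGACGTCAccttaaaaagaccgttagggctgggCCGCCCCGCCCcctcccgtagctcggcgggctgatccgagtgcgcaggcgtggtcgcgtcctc
Sfn: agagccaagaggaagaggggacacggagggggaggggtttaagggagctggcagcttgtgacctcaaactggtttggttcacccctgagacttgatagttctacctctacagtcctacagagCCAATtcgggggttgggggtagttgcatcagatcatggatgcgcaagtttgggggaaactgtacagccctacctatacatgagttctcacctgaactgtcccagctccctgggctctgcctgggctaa

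The Ywhag stretch held 2 GC boxes and 1 response element core. The Ywhah stretch held 2 overlapping GC boxes, 1 TATA box and 1 full response element, which contains 2 cores, 1 on each strand. In Sfn the only match was 1 CCAAT box. Of 32851 promoters of the same length, 32.74% held a GC box, 33.85% a CCAAT box, 12.37% a TATA box, 1.55% the full response element and 17.77% its core. GC content was 58.4% in Ywhag, 68.8% in Ywhah and 54.4% in Sfn, and the number of CpG dinucleotides was 16, 29 and 3 in that order, against medians of 52.4% and 6 over all promoters. Ywhae (2 GC boxes, 29 CpG) and Ywhaq (2 CCAAT boxes, 24 CpG) were also matched, 5 of the 7 genes in all.

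Med13 itself had 43.9, 39.4, 41.7 and 43.8 FPKM in Med13 morpholino libraries, against 41.1, 38.5, 38.2 and 47.5 FPKM in scrambled morpholino libraries, and the groups overlapped. A morpholino can block translation and leave RNA in place, so this level does not check the labels. Estimated depth was 31378933 to 45748738 fragments in Med13 morpholino libraries and 33541845 to 48050157 in scrambled morpholino libraries. Scrambled replicate 2 stood apart, as its top 10 genes held 20.8% of summed FPKM, where those of the remaining scrambled morpholino libraries held 12.99% to 13.8%. Those of the 4 Med13 morpholino libraries held 16.4% to 17.5%, and the part of this in the levels below was not tested. All 12 2-cell and egg markers had a mean of at least 1 FPKM, and their summed level was 863 to 1012 FPKM in Med13 morpholino libraries and 628 to 757 FPKM in scrambled morpholino libraries. The part of this shift in the levels below was not tested. None of 10 cumulus markers reached a mean of 1 FPKM (summed 0.873 to 1.43 FPKM in Med13 morpholino libraries, 0.701 to 2.44 in scrambled morpholino libraries), nor did any of the 4 sperm markers with a row (0.124 to 0.436 FPKM in Med13 morpholino libraries, 0.123 to 0.911 in scrambled morpholino libraries). Of 6 blood and epithelial markers with a row, 3 did, Cd68, Epcam and Ovgp1, and the 6 summed to 30.4 to 36.8 FPKM in Med13 morpholino libraries and 26.0 to 36.1 FPKM in scrambled morpholino libraries. No marker with a row had a mean of 0.

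The members moved in different directions. Ywhag and Ywhaz were higher in every Med13 morpholino library than in any scrambled morpholino library, Sfn was lower, and the groups overlapped for the other 4 genes. Groups did not overlap for 3 of 7 members, 2 higher and 1 lower. Over all 11755 genes the share was 21.6% (10.4% higher and 11.1% lower). Since this contrast chose the family, nothing is read from the count. The median log2 difference was -0.09 over the 7 members, with a range of -1.16 to 1.45, and -0.06 over all genes.

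**Figure D1:**
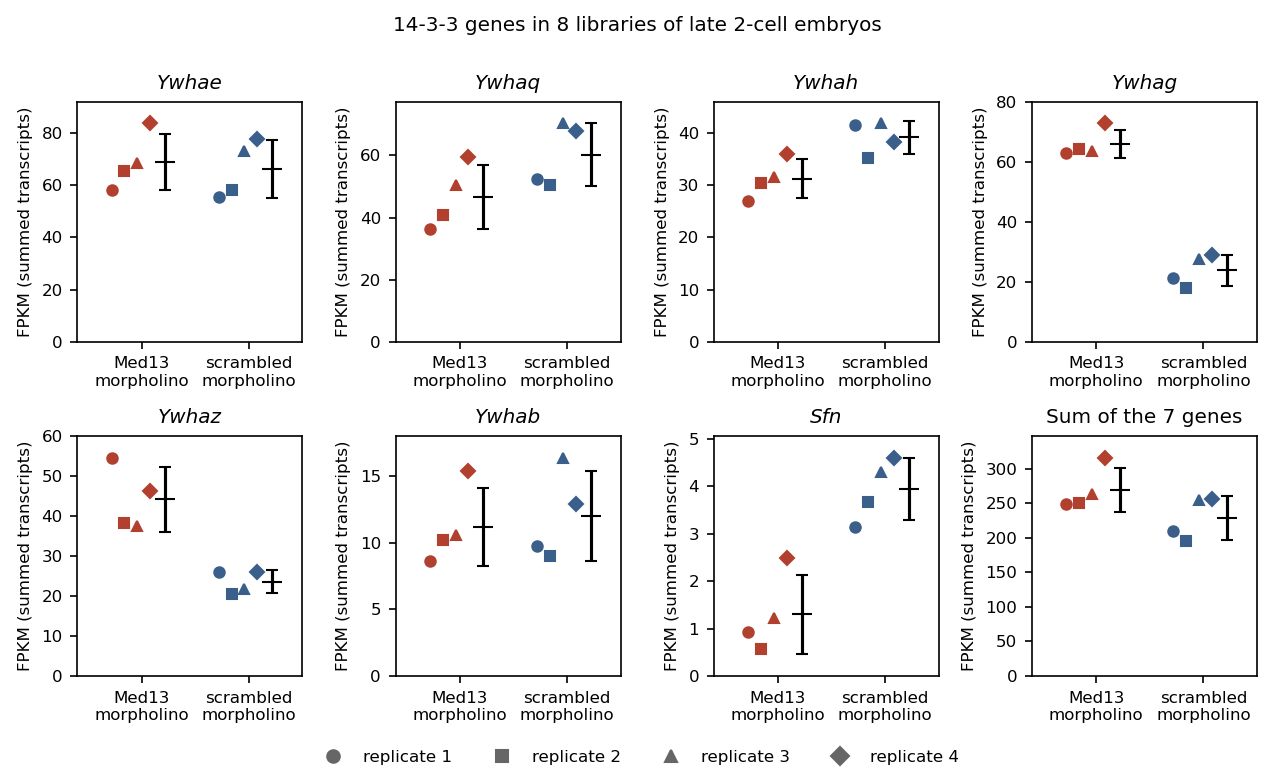
Summed FPKM of each 14-3-3 gene and of all 7 together by library (1 symbol per replicate), with Med13 morpholino left of scrambled morpholino, bars of mean ± SD, and a linear axis from 0 per gene. Ywhag and Ywhaz have no overlap between groups and are higher in Med13 morpholino libraries, and Sfn has none and is lower.

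Ywhag, the gamma form, had 63.1, 64.3, 63.7 and 72.8 FPKM in Med13 morpholino libraries, against 21.1, 17.8, 27.5 and 28.9 FPKM in scrambled morpholino libraries. The lowest Med13 morpholino library stood above the highest scrambled one by more than the range within either group. The means were 66.0 ± 4.61 FPKM in Med13 morpholino libraries and 23.8 ± 5.25 FPKM in scrambled morpholino libraries (SD, n = 4 each), a ratio of 2.77 and a difference of 1.45 ± 0.16 (SE) on the log2(FPKM + 1) scale, which is used for all log2 differences here.

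Ywhaz, the zeta form, had 54.7, 38.3, 37.5 and 46.4 FPKM in Med13 morpholino libraries, against 26.1, 20.5, 21.7 and 26.1 FPKM in scrambled morpholino libraries. Med13 morpholino replicate 1 was the highest, and all 4 lay above the scrambled libraries. The means were 44.2 ± 8.07 FPKM in Med13 morpholino libraries and 23.6 ± 2.94 FPKM in scrambled morpholino libraries (SD, n = 4 each), a ratio of 1.87 and a log2 difference of 0.87 ± 0.15 (SE).

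Sfn, the sigma form, was the scarcest member in both groups. It had 0.919, 0.565, 1.23 and 2.48 FPKM in Med13 morpholino libraries, against 3.14, 3.68, 4.31 and 4.60 FPKM in scrambled morpholino libraries. Med13 morpholino replicate 4 came closest to the scrambled libraries without reaching them. The means were 1.30 ± 0.833 FPKM in Med13 morpholino libraries and 3.93 ± 0.653 FPKM in scrambled morpholino libraries (SD, n = 4 each), a ratio of 0.330. The log2 difference of -1.16 ± 0.26 (SE) understates this, since the added 1 FPKM is near the level itself, and with 0.1 added in its place the difference was -1.69. The values rest on an estimated 56, 36, 62 and 183 fragments in Med13 morpholino libraries and 191, 255, 334 and 249 in scrambled morpholino libraries.

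Ywhah and Ywhaq had lower means in Med13 morpholino embryos with groups that overlapped. Ywhah, the eta form and closest relative of Ywhag, had 26.9, 30.5, 31.5 and 36.0 FPKM in Med13 morpholino libraries, against 41.5, 35.1, 41.8 and 38.2 FPKM in scrambled morpholino libraries. Only Med13 morpholino replicate 4 lay above a scrambled library, replicate 2. The means were 31.2 ± 3.75 FPKM in Med13 morpholino libraries and 39.1 ± 3.16 FPKM in scrambled morpholino libraries, with a log2 difference of -0.32 ± 0.10 (SE, n = 4 each). Ywhaq, the theta form, had 36.4, 40.7, 50.4 and 59.3 FPKM in Med13 morpholino libraries, against 52.4, 50.6, 70.3 and 67.8 FPKM in scrambled morpholino libraries. Its Med13 morpholino replicate 4 stood above 2 of the scrambled libraries. The means were 46.7 ± 10.3 FPKM in Med13 morpholino libraries and 60.3 ± 10.2 FPKM in scrambled morpholino libraries, with a log2 difference of -0.37 ± 0.20 (SE, n = 4 each).

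Ywhae and Ywhab differed by less than the spread between libraries. Ywhae, the epsilon form, had 57.9, 65.3, 68.5 and 83.5 FPKM in Med13 morpholino libraries, against 55.4, 58.1, 73.1 and 77.8 FPKM in scrambled morpholino libraries, with a log2 difference of 0.06 ± 0.16 (SE). Ywhab, the beta form, had 8.64, 10.2, 10.5 and 15.4 FPKM in Med13 morpholino libraries, against 9.77, 9.00, 16.4 and 12.9 FPKM in scrambled morpholino libraries, with a log2 difference of -0.09 ± 0.24 (SE). The sign of both differences changed when single libraries were left out, from -0.04 to 0.14 for Ywhae and from -0.24 to 0.06 for Ywhab.

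**Figure D2:**
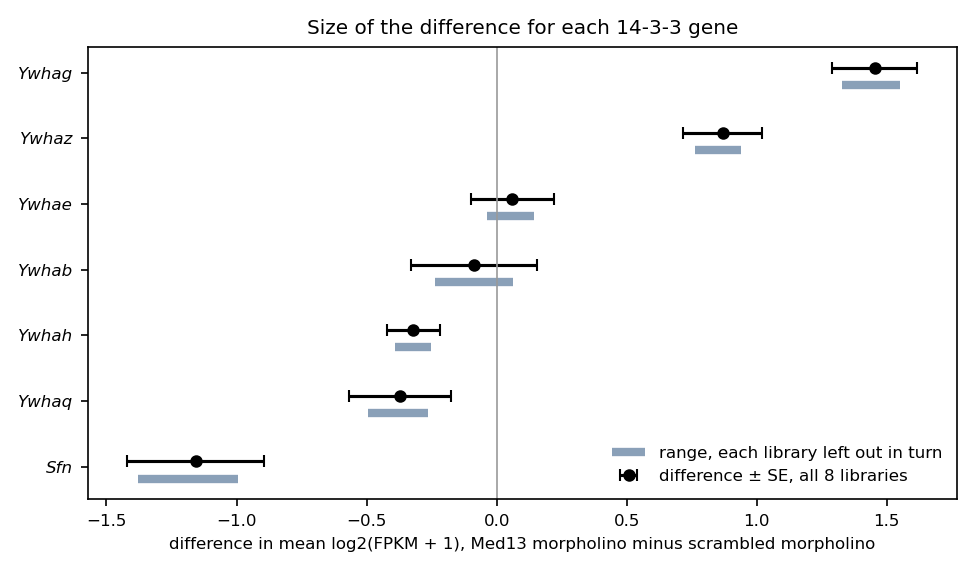
Difference in mean log2(FPKM + 1), Med13 morpholino minus scrambled morpholino, for each 14-3-3 gene with its SE, and as a bar the range when each library is left out in turn. The ranges run from 1.33 to 1.55 for Ywhag, 0.76 to 0.94 for Ywhaz and -1.38 to -0.99 for Sfn, and those of Ywhae and Ywhab cross 0.

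Summed over the 7 genes, the family had 269 ± 31.7 FPKM in Med13 morpholino libraries and 229 ± 31.5 FPKM in scrambled morpholino libraries (SD, n = 4 each). The groups overlapped, and the log2 difference was 0.24 ± 0.13 (SE). The make-up of that sum is described by shares. Ywhag made up 24.6 ± 1.22% of it in Med13 morpholino libraries and 10.3 ± 0.925% in scrambled morpholino libraries, and Ywhaz 16.6 ± 3.66% in Med13 morpholino libraries and 10.4 ± 1.62% in scrambled morpholino libraries. Ywhaq made up 17.2 ± 2.13% in Med13 morpholino libraries and 26.3 ± 1.05% in scrambled morpholino libraries. For Ywhah the shares were 11.6 ± 0.621% in Med13 morpholino libraries and 17.3 ± 2.11% in scrambled morpholino libraries, and for Sfn 0.462 ± 0.237% in Med13 morpholino libraries and 1.72 ± 0.166% in scrambled morpholino libraries. None of these 5 shares overlapped between groups, and since this contrast chose the family, nothing is read from that count. On the most abundant transcript of each gene the shares of Ywhaq were 7.84 ± 0.992% in Med13 morpholino libraries and 12.7 ± 0.619% in scrambled morpholino libraries, those of Ywhag 21.05 ± 1.55% in Med13 morpholino libraries and 8.22 ± 1.19% in scrambled morpholino libraries, and neither pair overlapped. For Ywhaq that transcript is ENSMUST00000049531, which has no model in GENCODE M21 and holds 26.7% of the summed FPKM of its gene. Shares add to a whole, so a higher share of some genes lowers the others. Ywhae had 25.5 ± 1.45% in Med13 morpholino libraries and 28.8 ± 1.73% in scrambled morpholino libraries, with ranges that lay next to each other (highest 26.433% in Med13 morpholino libraries, lowest 26.443% in scrambled morpholino libraries) and that overlapped on the most abundant transcript. Ywhab had 4.11 ± 0.575% in Med13 morpholino libraries and 5.18 ± 0.848% in scrambled morpholino libraries, with ranges that overlapped.

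**Figure D3:**
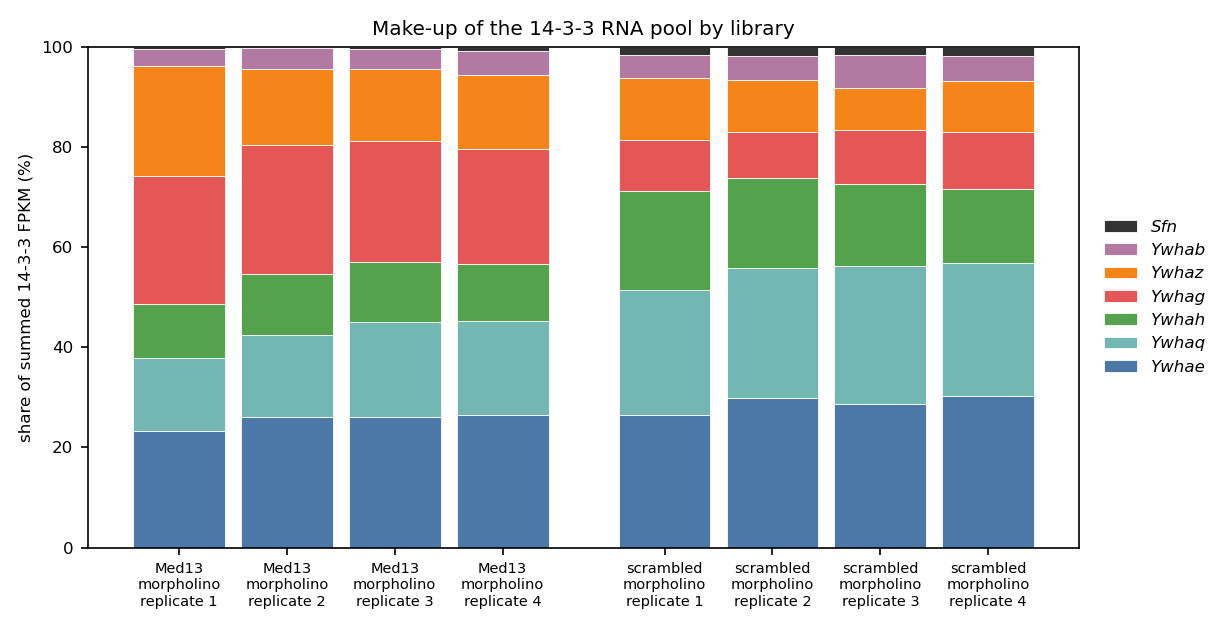
Share of the summed 14-3-3 FPKM held by each gene (%), as a stacked bar per library, the 4 Med13 morpholino libraries left of the 4 scrambled ones. Ywhag holds 23.1% to 25.7% in Med13 morpholino libraries and 9.15% to 11.3% in scrambled morpholino libraries.

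Ratios within a library do not depend on its scaling. Ywhag over its closest relative Ywhah was 2.35, 2.11, 2.02 and 2.03 in Med13 morpholino libraries, against 0.510, 0.508, 0.657 and 0.758 in scrambled morpholino libraries. Gamma RNA was thus above eta RNA in every Med13 morpholino library and below it in every scrambled one. Ywhag over Ywhae was 0.968 ± 0.0923 in Med13 morpholino libraries and 0.359 ± 0.0350 in scrambled morpholino libraries, and Ywhaz over Ywhab 4.16 ± 1.48 in Med13 morpholino libraries and 2.08 ± 0.568 in scrambled morpholino libraries (SD, n = 4 each), both without overlap. On the most abundant single transcript of each gene, Ywhag over Ywhah was 1.18 ± 0.121 in Med13 morpholino libraries and 0.330 ± 0.0756 in scrambled morpholino libraries.

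The order of levels changed with these ratios. In Med13 morpholino embryos Ywhae and Ywhag came first, with ranges that overlapped, then Ywhaq and Ywhaz, whose ranges also overlapped, then Ywhah, Ywhab and Sfn, each separate from the next. In scrambled morpholino embryos Ywhae and Ywhaq came first, with ranges that overlapped, then Ywhah, then Ywhag and Ywhaz, which overlapped, then Ywhab and Sfn, each separate. Several places depended on summing transcript rows. On the most abundant transcript alone Ywhaq was the fifth in Med13 morpholino embryos, with 11.7 ± 2.59 FPKM, and the third in scrambled morpholino embryos, with 16.8 ± 1.66 FPKM (SD, n = 4 each), and these ranges did not overlap. Ywhae still came first in both groups and Sfn last. In Med13 morpholino embryos Ywhag, Ywhah and Ywhaz followed Ywhae in that order, each overlapping the next. In scrambled morpholino embryos Ywhah was the second, and Ywhag, Ywhab and Ywhaz, after Ywhaq, overlapped. The most abundant Ywhaq transcript has no model in GENCODE M21. On coding transcripts alone Ywhaq had rank 4 in Med13 morpholino embryos (30.8 ± 7.09 FPKM). In scrambled morpholino embryos it had rank 2 (38.0 ± 6.08 FPKM), and its groups overlapped.

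Transcript rows describe each difference within its gene. All 5 Ywhag rows were higher in Med13 morpholino libraries without overlap, by 0.59 to 1.61 on the log2 scale. The main coding transcript ENSMUST00000055808 had 31.1 ± 2.18 FPKM in Med13 morpholino libraries and 11.0 ± 2.87 FPKM in scrambled morpholino libraries (SD, n = 4 each), a ratio of 2.82. A shorter coding one, ENSMUST00000198270, had 15.1 ± 0.855 FPKM in Med13 morpholino libraries and 5.66 ± 1.12 FPKM in scrambled morpholino libraries, and the processed transcripts ENSMUST00000126639 and ENSMUST00000126192 had ratios of 3.76 and 2.32. For Ywhaz, 4 of 7 rows were higher without overlap, among them the coding transcripts ENSMUST00000022894, ENSMUST00000110361 and ENSMUST00000110362 with ratios of 2.23, 1.71 and 1.57. The other 3 were scarce rows of under 1 FPKM on average. For Ywhaq, 1 of 6 rows was lower without overlap, ENSMUST00000049531, which has no model in GENCODE M21. The coding rows ENSMUST00000103002, ENSMUST00000135088 and ENSMUST00000155480 had ratios of 0.805, 0.807 and 0.823 with overlapping groups. All rows of Ywhae (5), Ywhah (4) and Ywhab (2) overlapped. The share without overlap over all transcript rows was not computed. Since this contrast chose the family, nothing is read from the counts of rows. Isoforms share exons and how fragments were assigned among them is unknown here, so rows of a gene are not independent, and a sum may count a fragment more than once.

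**Figure D4:**
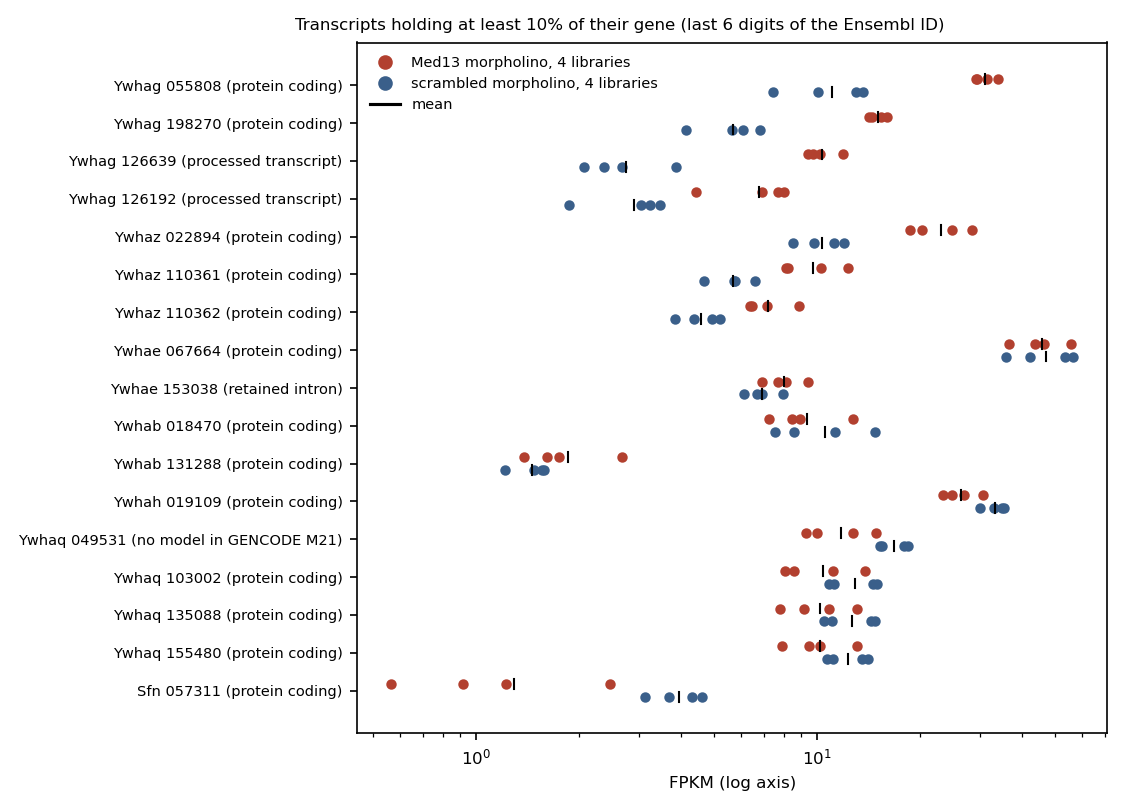
FPKM (log axis) of the 17 transcript rows that hold at least 10% of their gene, with the 4 Med13 morpholino libraries above the 4 scrambled ones and a black tick at each mean. The 4 Ywhag and 3 Ywhaz rows lie to the right in Med13 morpholino libraries, and the Sfn row to the left.

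Several members have processed pseudogenes that could take or give reads. Of the stretches of 50 bases in the main annotated transcript, 0.35% occurred in other genes for Ywhag, 19.88% for Ywhaz, 15.03% for Sfn, 18.6% for Ywhah and 37.07% for Ywhaq, and none for Ywhae and Ywhab. The copies were scarce where they were measured. Gm7850 and Gm5279, which share 11.76% and 5.56% with Sfn, were not measured. Nor were Ywhaq-ps3 and Gm21178, which share 28.09% and 12.42% with Ywhaq. Whether reads moved between these copies and the members was not tested. Cdk5rap2, a coding gene that shares 17.37% with Ywhaq, had 1.94 ± 0.290 FPKM in Med13 morpholino libraries and 1.77 ± 0.626 FPKM in scrambled morpholino libraries. Gm4202, which shares 19.73% with Ywhaz, had 2.27 ± 0.360 FPKM in Med13 morpholino libraries and 1.76 ± 0.204 FPKM in scrambled morpholino libraries. Gm2423, which shares 28.34% with Ywhaq, had 1.47 ± 0.415 FPKM in Med13 morpholino libraries and 2.26 ± 0.632 FPKM in scrambled morpholino libraries. Gm12428, which shares 18.6% with Ywhah, had 0.573 ± 0.156 FPKM in Med13 morpholino libraries and 0.665 ± 0.331 FPKM in scrambled morpholino libraries (SD, n = 4 each). Values of Ywhaq carry a further limit. The antisense gene Gm4419 covers 8.1% of its exonic bases and had 14.6 ± 1.70 FPKM in Med13 morpholino libraries and 23.3 ± 3.84 FPKM in scrambled morpholino libraries, and without a stated strand setting reads of the 2 genes cannot be told apart there.

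Genes with the most similar profiles over the 8 libraries were ranked among 4583 genes with a mean of at least 5 FPKM and a symbol that is not a clone or predicted name, by the root mean square difference between centred log2(FPKM + 1) profiles. For Ywhag they were Tet3, which oxidises methylcytosine (0.151), the noncoding Arhgap20os (0.159) and the corepressor scaffold Sin3a (0.171). Tet3 had 68.2 ± 7.09 FPKM in Med13 morpholino libraries and 24.6 ± 6.36 FPKM in scrambled morpholino libraries. For Sfn they were the ISWI ATPase Smarca5 (0.126), the arginine methyltransferase Prmt5 (0.209) and the splicing kinase Prpf4b (0.214). Prmt5 had 10.3 ± 2.72 FPKM in Med13 morpholino libraries and 20.3 ± 1.53 FPKM in scrambled morpholino libraries (SD, n = 4 each). The added 1 FPKM understates the log2 difference of Sfn, which was -1.69 with 0.1 added. Nearness to Sfn on this scale therefore does not mean a like ratio between the groups. For the 2 most abundant members the closest were Pias1 (0.0238), Scfd2 (0.0428) and Fbrsl1 (0.0701) to Ywhae, and Wdr45b (0.0497), Parg (0.0613) and Zmynd19 (0.0655) to Ywhaq. The distance is a description over 8 libraries in 2 groups.

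Proteins that 14-3-3 binds and the enzymes that write or remove the docking phosphates were read from 4 lists. Of 93 listed genes 76 were measured, of which 10 rose and 7 fell by limma at a Benjamini-Hochberg adjusted p below 0.05. That is 22.4%, against 17.1% of all 11755 genes (9.29% higher and 7.81% lower). The lists were written with earlier results of these data known, so nothing is read from their shares of calls. Calls of 8 of the 17 genes held under every alternative tried in which the gene was measured, Wee2, Cdc25b, Tbc1d1, Bad, Prkaca, Mark2, Mark4 and Prkacb. Calls of the other 9 were lost under at least 1 alternative.

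Among the 10 cell cycle partners, 2 rose and 0 fell, and the median log2 difference was -0.03. Wee2, the oocyte kinase that inhibits CDK1, had 126, 77.1, 74.9 and 79.8 FPKM in Med13 morpholino libraries, against 26.6, 14.6, 15.2 and 17.9 FPKM in scrambled morpholino libraries. Every Med13 morpholino library was far above every scrambled one (log2 difference 2.21 ± 0.22 SE, limma adjusted p = 9.93e-05). Cdc25b, the phosphatase that activates CDK1, had 4.07, 4.37, 3.20 and 3.18 FPKM in Med13 morpholino libraries, against 1.44, 1.57, 1.98 and 1.90 FPKM in scrambled morpholino libraries. Its groups were separate too (log2 difference 0.79 ± 0.15 SE, limma adjusted p = 0.00515). RNA of 1 inhibitor and of 1 activator of CDK1 thus rose together, but the related genes in the list, named after their values were seen, were not called. The log2 difference was -0.62 for Cdc25a (limma adjusted p = 0.137) and 0.01 for Cdc25c. It was -0.12 for the kinase Wee1 and -0.08 for the kinase Pkmyt1.

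Of 39 signalling partners 28 were measured, of which 3 rose and 6 fell. That is 32.1%, against 17.1% of all genes, and the median log2 difference was 0.02. Bad, a promoter of cell death held by 14-3-3 when phosphorylated, averaged 1.12 ± 0.389 FPKM in Med13 morpholino libraries and 2.69 ± 0.332 FPKM in scrambled morpholino libraries (SD, n = 4 each; limma adjusted p = 0.00582), and 20.5% of its exonic bases overlap another gene. Tbc1d1, a Rab GTPase-activating protein, averaged 5.21 ± 0.572 FPKM in Med13 morpholino libraries and 2.63 ± 0.488 FPKM in scrambled morpholino libraries (limma adjusted p = 0.0057). Zfp36l2, which binds AU-rich elements of mRNAs, averaged 0.915 ± 0.202 FPKM in Med13 morpholino libraries and 2.44 ± 0.855 FPKM in scrambled morpholino libraries (limma adjusted p = 0.0141). Without Med13 morpholino replicate 2 its limma adjusted p was 0.0509, and with no filter on low values 0.0606. The gene passed the 1 FPKM minimum through the scrambled morpholino libraries. Sos1, an exchange factor for RAS, averaged 7.56 ± 1.21 FPKM in Med13 morpholino libraries and 13.4 ± 3.64 FPKM in scrambled morpholino libraries, with overlapping groups (limma adjusted p = 0.0287, and up to 0.0951 over the alternatives).

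A further 4 called partners are named after their values were seen. Crtc3, a coactivator of CREB, was higher by 0.49 on the log2 scale. Zfp36, Akt1s1 (a subunit of the mTORC1 complex) and Bax, a pore-forming death effector, were lower, with log2 differences of -0.66, -0.91 and -0.73 and groups that overlapped. The limma adjusted p of these 4 lay between 0.037 and 0.0474, and each call was lost under several alternatives. The count of called signalling partners fell to 2 without Med13 morpholino replicate 2 and to 3 without Med13 morpholino replicate 1 or 3 or scrambled replicate 3. It was 5 without scrambled replicate 1, 2 or 4.

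Of 30 kinases 25 were measured, of which 5 rose and 1 fell, with a median log2 difference of -0.03. Both catalytic subunits of protein kinase A were called, in opposite directions. Prkaca had 5.23, 5.85, 5.38 and 5.58 FPKM in Med13 morpholino libraries, against 3.05, 2.54, 2.80 and 2.76 FPKM in scrambled morpholino libraries (log2 difference 0.78 ± 0.13 SE, limma adjusted p = 0.00282). Prkacb had 1.55, 1.38, 1.39 and 1.56 FPKM in Med13 morpholino libraries, against 3.17, 2.48, 3.02 and 2.52 FPKM in scrambled morpholino libraries (log2 difference -0.62 ± 0.13 SE, limma adjusted p = 0.00972). The groups were separate for both genes, and Prkaca stood above Prkacb in 4 of 4 Med13 morpholino libraries and in 2 of 4 scrambled morpholino libraries.

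Mark2, a polarity kinase of the Par-1 family, averaged 93.4 ± 17.5 FPKM in Med13 morpholino libraries and 33.1 ± 16.0 FPKM in scrambled morpholino libraries (log2 difference 1.57 ± 0.29 SE, limma adjusted p = 0.00403). Its relative Mark4 averaged 2.47 ± 0.490 FPKM in Med13 morpholino libraries and 0.952 ± 0.282 FPKM in scrambled morpholino libraries (limma adjusted p = 0.00491). It passed the 1 FPKM minimum through the Med13 morpholino libraries, and the call also held with no filter. Akt1, a kinase of the insulin pathway named after its value was seen, averaged 9.92 ± 2.02 FPKM in Med13 morpholino libraries and 5.82 ± 1.48 FPKM in scrambled morpholino libraries (limma adjusted p = 0.0297). Its call was lost with no filter on low values (limma adjusted p = 0.0929) and without Med13 morpholino replicate 1, 2 or 3 or scrambled replicate 3.

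Of 14 subunits of the phosphatases PP1 and PP2A that can remove docking phosphates, 13 were measured. Limma called 0 of them, against 17.1% of all genes, with 3 at an unadjusted p below 0.05. Their median log2 difference was -0.10. Ppp1cc, a catalytic subunit of PP1, averaged 168 ± 21.3 FPKM in Med13 morpholino libraries and 166 ± 15.7 FPKM in scrambled morpholino libraries (SD, n = 4 each; limma adjusted p = 0.981). Ppp2cb, a catalytic subunit of PP2A, averaged 24.3 ± 3.05 FPKM in Med13 morpholino libraries and 20.9 ± 2.07 FPKM in scrambled morpholino libraries (limma adjusted p = 0.394). Without scrambled replicate 2, 1 subunit was called.

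**Figure D5:**
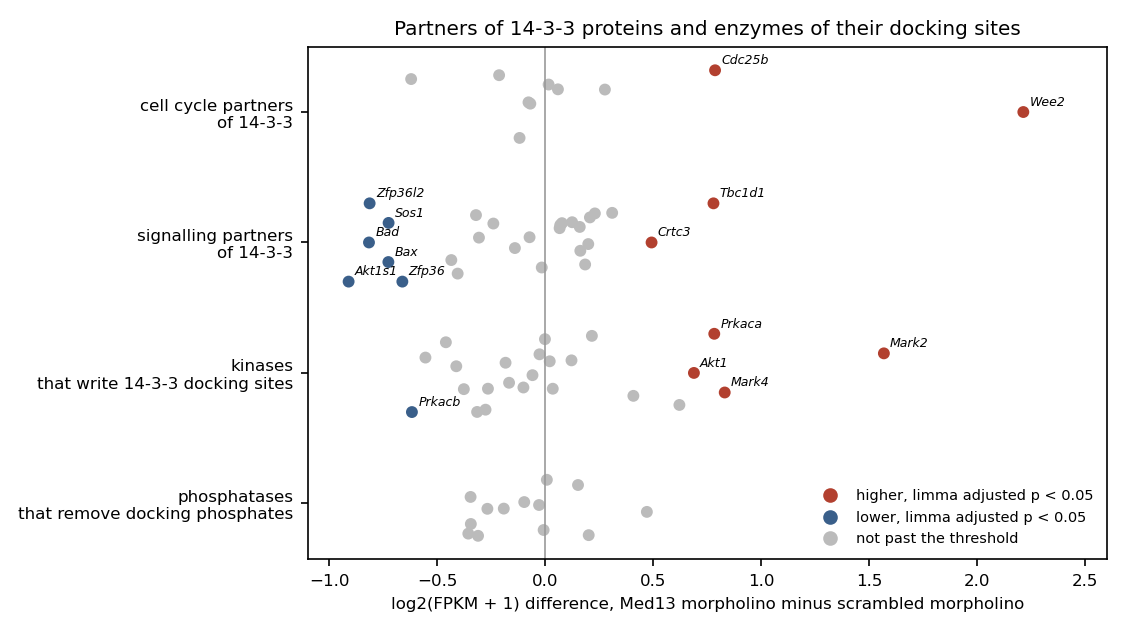
Log2(FPKM + 1) difference, Med13 morpholino minus scrambled morpholino, of measured genes in the 4 lists, red for higher and blue for lower at a limma adjusted p below 0.05, grey otherwise, with vertical position within a list set for legibility. Wee2 (2.21) and Mark2 (1.57) lie farthest to the right, and no phosphatase subunit is coloured.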

How the data were processed

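RNA was measured in 4 Med13 morpholino and 4 scrambled morpholino libraries. Per the labels' protocols, RNA was amplified (Ovation RNA-Seq System V2) before TruSeq library preparation. The authors deposited FPKM values per Ensembl transcript. BWA and mm10 are named in the submitters' processing notes, and their version, the counting tool, annotation release and strandedness were not given in the sources used here. Titles matched the table's columns to samples, 0 columns stayed unmatched, and replicate numbers follow accession order.

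Of 97496 rows, 3758, all with a hyphen in the symbol, have values moved by 1 column and were left out, and of the 93738 used, 98.67% matched GENCODE M21. Depth was estimated from the low values, which were multiples of 1 step per library. The step was taken to be 0.5 fragments, which was assumed and not measured. On that setting 94.3% to 94.4% of values up to 20 fragments lay within 0.01 of a step. All depths and fragment numbers given here scale with the assumed step. Depth and fragment numbers cover counting error only.

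Rows were summed per symbol. Symbols averaging at least 1 FPKM were tested on the log2(FPKM + 1) scale by limma 3.58.1 under R 4.3.3 (two-sided, with a mean-variance trend and no covariate, Benjamini-Hochberg over 11755 genes), after a test on simulated data. Fold changes on this scale understate changes of low genes. Promoters are from RefSeq.

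Members and lists were chosen with earlier results of these data known. Named genes are all members, up to 4 called genes per list of smallest adjusted p (made up to 2 by abundance), the 3 nearest profiles of 4 members, Med13 and transcripts with at least 10% of their gene. Values of 2 called list genes are not reported here. Alternatives were the pseudocount, the filter, median-ratio scaling, quantile normalization, coding transcripts only, the main transcript only and leaving out each library.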

Additional observations from a re-analysis of the deposited data

Results flagged for a closer look

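In 3 of 56 groups of 4 libraries, 1 library stood apart from the other 3 by more than Dixon's critical value for 4 samples allows. Chance alone flags about 1 in 20 groups. Ywhag was 72.8 FPKM in Med13 morpholino replicate 4, where the other 3 had 63.1 to 64.3 FPKM (gap over range 0.874). All 4 lay above every scrambled morpholino library, and without replicate 4 the direction was the same. Wee2 was 126 FPKM in Med13 morpholino replicate 1, where the others had 74.9 to 79.8 FPKM (gap over range 0.905). Its limma adjusted p was at most 0.000576 with any 1 library left out. Ppp1cc was 143 FPKM in scrambled replicate 2, where the others had 172 to 177 FPKM (gap over range 0.866).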

How the results depend on the processing

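Under 13 alternatives, 103 of 104 log2 differences of the members and their sum moved by less than 1 SD. The exception was Sfn with a pseudocount of 0.1 (-1.69 against -1.16). Leaving out 1 of 4 libraries cannot move a difference by 1 pooled SD, so those alternatives could not exceed this limit. The limit also ignores sign, which changed for Ywhae and Ywhab when single libraries were left out. The number of genes called was 2010 of 11755. It was 1012 of 34976 with no filter and 1137 of 5535 with a minimum mean of 5 FPKM. With 1 library left out it was 975 to 2406. The list genes called were 17, and 8, 8 and 8 to 17 under the same settings, with fewer list genes tested under the 5 FPKM minimum. Of the calls, 54.3% were higher, against 43.6% (without scrambled replicate 2) to 64.1% (without Med13 morpholino replicate 2) with 1 library left out and 61.6% with no filter. Cell cycle partners called were 1 of 6 with a minimum mean of 5 FPKM and 1 of 8 on the main transcript only, against 2 of 10. Cdc25b was not among the genes tested in those settings. Signalling partners called were 2 of 39 with no filter and 3 of 11 with the 5 FPKM minimum, against 9 of 28. Ppp1cc turned to a negative log2 difference without Med13 morpholino replicate 3 (-0.01) or 4 (-0.06) or scrambled replicate 2 (-0.06), with limma adjusted p of 0.981, 0.819 and 0.803. With each library left out in turn, its adjusted p ran from 0.733 to 0.986. The cause was not tested. No paired analysis was made, because no label states that libraries of the 2 groups belong together. The numbers in the sample titles alternate between the groups, and whether this marks pairs is unknown. The lowest library of Sfn held an estimated 36 fragments, which limits its precision.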
